A study of Mus musculus with 3 samples.

Results

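The 9 genes described here encode secreted factors that act on blood and lymphatic vessels, with 1 receptor of such a factor: the vascular endothelial growth factors Vegfa, Vegfb, Vegfc and Pgf, the angiopoietins Angpt1, Angpt2 and Angpt4, the platelet-derived growth factor chain Pdgfa and its receptor Pdgfra. They were chosen by name, and all 9 were present in each library among the 21446 gene identifiers shared by the 3 libraries. The cells came from the mandibular molars of mice that carry a Pthrp-mCherry knock-in allele, a fluorescent reporter in the gene of parathyroid hormone-related protein (PTHrP) that marks cementoblasts and their precursors on the tooth root. Sorted mCherry+ cells pooled from mandibles gave 1 single-cell library each at postnatal day (P) 15, at P25 and at 8 weeks, and all 3 libraries share that genotype and sort. There was no untreated, wild-type or unsorted group, and no time point had a replicate, so no difference between ages was tested.

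VEGFs signal through tyrosine kinase receptors on endothelial cells and drive the sprouting of vessels, with Vegfc acting on lymphatic vessels through the receptor encoded by Flt4. Angiopoietins bind the endothelial receptor Tie2, encoded by Tek: angiopoietin 1 stabilizes vessels, angiopoietin 2 often opposes it, and angiopoietin 4 is a less studied Tie2 ligand. PDGF-A signals to mesenchymal cells through PDGF receptor alpha, and the periodontal ligament next to the root is a well-perfused tissue whose mesenchymal cells border on these vessels.

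The libraries held 12926, 8971 and 5192 cells at P15, P25 and 8 weeks, with a median of 14253.5, 15834 and 8712.5 unique molecular identifiers (UMIs) per cell. Cells were grouped by the UMIs of a single marker, and such a group is called a gate. Ogn encodes an extracellular matrix proteoglycan of fibrous tissue, Ibsp a sialoprotein of mineralized matrix and Ifitm5 a membrane protein of matrix-mineralizing cells, while Hand2 encodes a transcription factor of the jaw mesenchyme. The remaining gates rest on Krt14, an epithelial keratin, on Rgs5, a marker of pericytes around small vessels, and on Pecam1, an endothelial adhesion molecule. The Ogn gate held 2831, 2317 and 1528 cells at the 3 ages, the Ibsp gate 1463, 1857 and 1458, the Ifitm5 gate 523, 750 and 255, and the Hand2 gate 182, 202 and 125. The Krt14 gate held 1755, 934 and 135 cells. The Rgs5 gate held 178, 9 and 6 cells and the Pecam1 gate 138, 6 and 5, so both entered tests only from the P15 library. Another 563, 134 and 13 cells carried the immune marker Ptprc and served as a background, 294, 115 and 54 cells passed gates of different lineages and were left out, and 4999, 2647 and 1613 cells passed no gate.

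Each gate was checked with a list of markers that includes the gene of the gate, so its sum is in part set by the gating. A list of 11 endothelial markers summed to 7968 CPM (UMIs of a gene per 1000000 UMIs) in the Pecam1 gate at P15. In the other gates it was at most 183 CPM, in the Rgs5 gate of P15, against 17.3 CPM in the Ogn gate of P15. The Ibsp list, at 18130, 19742 and 24107 CPM in the Ibsp gate, was at 16790, 12166 and 21396 CPM in the Ifitm5 gate. The Hand2 gate held 4556 CPM of the Hand2 list and 3873 CPM of the Ogn list at P15, and 8943 and 3327 CPM at 8 weeks. The list of 10 pericyte and smooth muscle markers summed to 14707 CPM in the Rgs5 gate at P15, but to 3409 and 1420 CPM in the 9 and 6 cells of P25 and 8 weeks, where the Ogn list stood at 7032 and 7539 CPM. The Rgs5 gate of those ages was therefore not read as pericytes. Pthlh, the gene of the reporter, was at 393, 313 and 361 CPM in the Ibsp gate and at 59.2, 114 and 153 CPM in the Ogn gate, against 14.2 to 15.8 CPM in the Ptprc gate, 23.0 CPM in the Pecam1 gate and 16.9 CPM in the Rgs5 gate at P15. The Krt14 gate, at 153, 76.2 and 59.6 CPM, lay above the Ogn gate at P15, and the Hand2 gate was at 18.8, 56.3 and 33.1 CPM. Of the cells that passed Hand2 (225, 734 and 536), those that also passed Ibsp or Ifitm5 were placed in these gates.

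Levels are given in CPM, from the UMIs of a gene and of all genes summed over the cells of a gate. Gates were compared with edgeR's quasi-likelihood test on the UMI sums per library and gate, with p-values adjusted by Benjamini-Hochberg over 14737 genes, and "called" means an adjusted p under 0.05. The 17 sums of the 7 gates entered 1 fit, the spread is that between libraries of different age, and 5 of the 6 comparisons share the sums of the Ogn gate. For the Rgs5 and Pecam1 gates the lone P15 sum was assumed to vary like the other gates. It was set against the Ogn gate of all 3 ages, so that differences between ages enter these log2 fold changes, and the ratio within P15 is given where it differs. In all, 24 of the 54 pairs of gene and comparison were called, 6 higher and 18 lower.

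Against the Ogn gate, the Ibsp gate was called lower in 4 members and higher in 1, where 3.94% of all genes tested were called lower and 2.82% higher. The Hand2 gate was called lower in 1 member (2.31% of all genes) and higher in none (1.21%). In the Krt14 gate 7 members were called lower and 1 higher, but there 25.2% of all genes were called lower and 25.7% higher. In the Rgs5 gate 2 members were called higher (3.07% of all genes) and 2 lower (1.81%). In the Pecam1 gate 2 members were called higher (10.9% of all genes) and 4 lower (10.3%). Between the Ifitm5 and Ibsp gates no member was called in either direction by edgeR (1.72% of all genes higher, 1.44% lower). There 3 members were at an unadjusted p under 0.05 and 3 were called by DESeq2. For the tests here and below, shares of all genes were counted for edgeR calls only. Counts at an unadjusted p or by DESeq2 thus have no such share beside them and cannot be set against the edgeR shares.

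**Figure D1:**
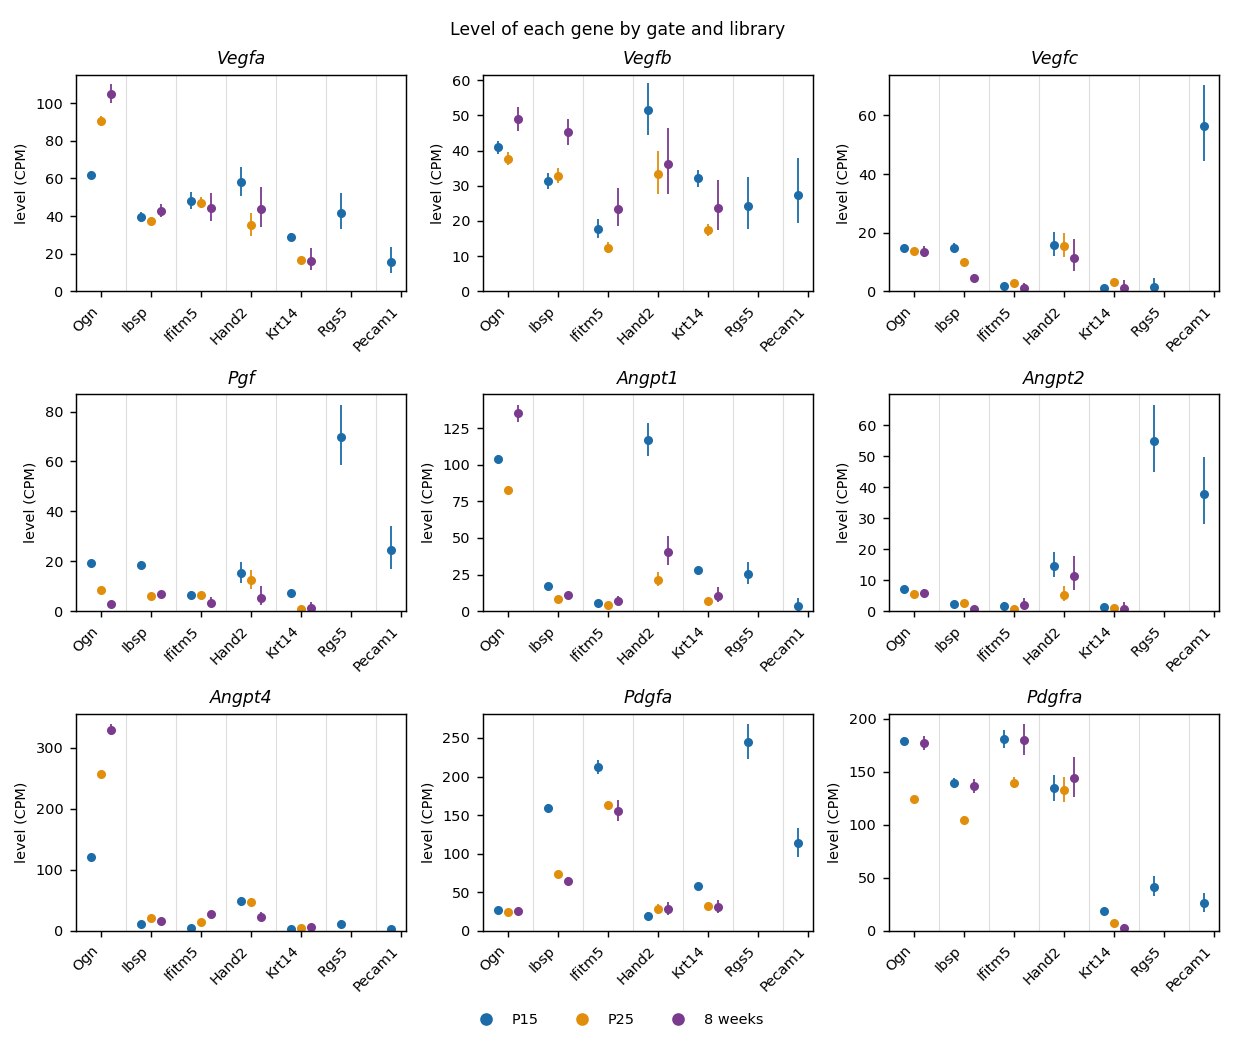
Level of each of the 9 genes (y axis, CPM, from 0) in the 7 gates (x axis) at P15, P25 and 8 weeks, 1 point per library with its 95% Poisson interval; sums of under 20 cells are left out. Angpt4 stands at 121 to 329 CPM in the Ogn gate and at no more than 48.2 CPM in the other gates, Pdgfa is highest in the Rgs5 and Ifitm5 gates, and Pdgfra is at 105 CPM or more in each mesenchymal gate and at 41.2 CPM or less elsewhere.

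Among the 7 gates, Vegfa, the main growth factor of blood vessels, was highest in the Ogn gate. Its level there was 61.9, 90.4 and 105 CPM at P15, P25 and 8 weeks, against 39.5, 37.1 and 42.9 CPM in the Ibsp gate and 48.1, 47.1 and 44.3 CPM in the Ifitm5 gate. The 3 values of the Ogn gate lay above every value of the Ibsp, Ifitm5 and Hand2 gates. The range of the Hand2 gate overlapped those of the Ifitm5 and Ibsp gates and held the single Rgs5 value of 41.8 CPM. The Ifitm5 range lay above the Ibsp range, a difference that was not called (log2 fold change 0.43, edgeR adjusted p = 0.432). The Ibsp gate was lower by a log2 fold change of -1.09 (SE 0.24, edgeR adjusted p = 0.017), in 3 of 3 libraries. Without the P25 library the edgeR adjusted p was 0.299 and without the 8-week library 0.257, with log2 fold changes of -0.98 and -0.97. With at least 3 UMIs as the only gate the edgeR adjusted p was 0.0821, at a log2 fold change of -0.93. In the Hand2 gate, at 58.0, 35.0 and 43.9 CPM, the log2 fold change from the Ogn gate was -0.96 (SE 0.25, edgeR adjusted p = 0.0504), and with the library as a block it was -0.97 (edgeR adjusted p = 0.0468).

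The epithelial and endothelial gates held the least Vegfa. The Krt14 gate was at 28.7, 16.6 and 16.4 CPM, lower than the Ogn gate by a log2 fold change of -1.93 (SE 0.25, edgeR adjusted p = 4.95e-05). The Pecam1 gate was at 15.5 CPM at P15, from 21 UMIs (log2 fold change -2.75, SE 0.45, edgeR adjusted p = 0.000861), which is 3.98-fold lower than the Ogn gate of P15 itself. Both calls held without the P25 and without the 8-week library. Because the Ogn gate was also the largest by UMIs, it held 36.0%, 40.7% and 47.0% of all Vegfa UMIs of the 3 libraries. The cells of no gate held 31.1%, 29.6% and 28.6%, where they held 33.8%, 22.7% and 21.5% of the UMIs of all genes. Their median was 13193, 13074 and 4759 UMIs per cell, against 16770, 16211 and 9883 in the Ogn gate. The floor of 3 UMIs can leave shallow cells with the marker out of a gate. The Ptprc gate, at 46.2, 26.2 and 15.1 CPM, had Vegfa at a level within the range of the other gates at P15.

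Vegfb, a VEGF that binds the receptor encoded by Flt1, stayed between 12.4 and 51.4 CPM in the 17 sums. It was at 40.9, 37.6 and 48.9 CPM in the Ogn gate, 31.3, 32.9 and 45.2 CPM in the Ibsp gate and 51.4, 33.4 and 36.1 CPM in the Hand2 gate, 3 ranges that overlap. The Ifitm5 gate had the lowest mean, at 17.7, 12.4 and 23.5 CPM, and its range overlapped that of the Krt14 gate. Its log2 fold change from the Ibsp gate was -0.87 (SE 0.24, edgeR adjusted p = 0.0705), and with the library as a block it was called lower (-0.88, edgeR adjusted p = 0.0233). In the Krt14 gate, at 32.1, 17.3 and 23.7 CPM, Vegfb was lower than in the Ogn gate (log2 fold change -0.68, SE 0.24, edgeR adjusted p = 0.0271), a call lost without the P25 library (edgeR adjusted p = 0.155) or the 8-week library (0.143).

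Vegfc, the growth factor of lymphatic vessels, was highest in the Pecam1 gate. The 138 endothelial cells of P15 held 76 Vegfc UMIs, which is 56.3 CPM (95% Poisson interval 44.3 to 70.4), against 14.7, 13.7 and 13.5 CPM in the Ogn gate. The log2 fold change of 1.73 (SE 0.62) was not called (edgeR adjusted p = 0.0629), and was called with the library as a block (1.63, edgeR adjusted p = 0.0456). The 6 and 5 endothelial cells of P25 and 8 weeks were at 84.7 and 288 CPM, from 13 and 19 UMIs, and were not tested.

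Among the mesenchymal gates, Vegfc was at 15.6, 15.5 and 11.4 CPM in the Hand2 gate and at 14.9, 9.95 and 4.43 CPM in the Ibsp gate, ranges that overlap each other and that of the Ogn gate. The Ifitm5 gate was at 1.90, 3.01 and 1.17 CPM, from 19, 60 and 4 UMIs, below every value of the Ibsp gate. That difference was not called without a block (log2 fold change -1.92, SE 0.50, edgeR adjusted p = 0.0581) and was called with the library as a block (-1.98, edgeR adjusted p = 0.0176). The Krt14 gate was at 1.17, 3.11 and 1.05 CPM, from 26, 77 and 2 UMIs. It was called lower than the Ogn gate (log2 fold change -2.64, SE 0.51, edgeR adjusted p = 0.000962), also without each library. The Rgs5 gate held 3 Vegfc UMIs at P15. At P25, 46.7% of all Vegfc UMIs lay in cells of no gate, at 26.0 CPM, above the level of the Ogn gate of that library.

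Pgf encodes placental growth factor, a VEGF that binds the Flt1 receptor. Its highest level was 69.8 CPM in the Rgs5 gate at P15 (132 UMIs, 95% Poisson interval 58.4 to 82.8), followed by 24.4 CPM in the Pecam1 gate and by 19.1, 8.46 and 2.93 CPM in the Ogn gate. The Rgs5 gate of P15 thus lay above every other sum tested. Its log2 fold change from the Ogn gate was 2.60 with an SE of 0.96, and was not called (edgeR adjusted p = 0.161). Within P15 the Rgs5 gate was 3.65-fold higher (95% Poisson interval 3.02 to 4.38), and with the library as a block the log2 fold change was 1.92. Pgf was the 1 member not called in the Krt14 gate (log2 fold change -1.45, SE 0.78, edgeR adjusted p = 0.139), where it was at 7.35, 0.807 and 1.05 CPM, and it was called lower there with the library as a block (-1.69, edgeR adjusted p = 0.0159). The Ibsp gate, at 18.4, 6.15 and 6.69 CPM, overlapped the Ogn gate.

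Angpt1, the ligand that activates Tie2, was at 104, 83.0 and 135 CPM in the Ogn gate. The Ibsp gate was at 17.0, 8.24 and 10.9 CPM and the Ifitm5 gate at 5.39, 4.16 and 6.75 CPM, both far below it at every age. Against the Ogn gate the Ibsp gate was lower by a log2 fold change of -3.13 (SE 0.58, edgeR adjusted p = 0.00686), in 3 of 3 libraries, with edgeR adjusted p of 0.118 without the P25 library and 0.202 without the 8-week library, at log2 fold changes of -3.05 and -2.86. The Hand2 gate differed by age. It was at 117 CPM at P15, above the Ogn gate, and at 21.4 and 40.3 CPM at P25 and 8 weeks, below it. Its log2 fold change from the Ogn gate was -0.88 (SE 0.54, edgeR adjusted p = 0.441), and -1.93 without the P15 library (edgeR adjusted p = 0.00781).

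The Krt14 gate held 28.0, 6.66 and 10.5 CPM of Angpt1, called lower than the Ogn gate (log2 fold change -2.68, SE 0.58, edgeR adjusted p = 0.00188), with an edgeR adjusted p of 0.0581 without the 8-week library. In the Pecam1 gate 5 UMIs gave 3.70 CPM (log2 fold change -5.12, SE 1.25, edgeR adjusted p = 0.0111, and 0.0590 without the 8-week library). The Rgs5 gate, at 25.4 CPM, was called lower with the library as a block (log2 fold change -2.91, edgeR adjusted p = 0.0333) but not without it (-2.26, SE 0.92, edgeR adjusted p = 0.208). The Ogn gate held 63.5%, 71.3% and 72.1% of all Angpt1 UMIs at P15, P25 and 8 weeks, where it held 27.2%, 25.9% and 34.1% of the UMIs of all genes.

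Angpt2, the Tie2 ligand that loosens vessels, was highest in the vessel-associated gates. The Rgs5 gate of P15 was at 55.0 CPM (104 UMIs) and the Pecam1 gate at 37.8 CPM (51 UMIs), against 7.16, 5.43 and 5.92 CPM in the Ogn gate. Both were called higher than the Ogn gate, the Rgs5 gate by a log2 fold change of 2.97 (SE 0.55, edgeR adjusted p = 0.00687) and the Pecam1 gate by 2.34 (SE 0.57, edgeR adjusted p = 0.0109). Without the P25 library the Rgs5 call was lost (edgeR adjusted p = 0.0556), and the Pecam1 call held without the P25 and without the 8-week library.

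Within the mesenchyme the Hand2 gate was at 14.6, 5.34 and 11.4 CPM of Angpt2 and overlapped the Ogn gate (log2 fold change 0.71, SE 0.44, edgeR adjusted p = 0.446). The Ibsp gate, at 2.28, 2.56 and 0.778 CPM, was called lower than the Ogn gate (-1.64, SE 0.44, edgeR adjusted p = 0.0413). When any 1 library was left out, the edgeR adjusted p was between 0.125 and 0.291. A doubled threshold (0.0722) or the kept cells of different lineages (0.121) lost the call too. So did at least 3 UMIs as the only gate (0.175) and leaving out the 5% of cells with the most UMIs (0.0627). The Krt14 gate, at 1.26, 0.968 and 0.527 CPM from 28, 24 and 1 UMIs, was lower too (-2.42, SE 0.49, edgeR adjusted p = 0.00126), also without each library. Although its level in the Rgs5 gate was the highest, only 11.3% of the Angpt2 UMIs of P15 lay there, and 39.7% lay in the larger Ogn gate.

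By the share of its UMIs, Angpt4 was the member most concentrated in 1 gate, with Angpt1 next and close to it at 8 weeks. The Ogn gate was at 121, 257 and 329 CPM at P15, P25 and 8 weeks and held 73.8%, 77.5% and 72.6% of all Angpt4 UMIs. Such a share also depends on the size of the gate, and the Ogn gate held 27.2%, 25.9% and 34.1% of the UMIs of all genes. By the mean over libraries the Hand2 gate followed, at 48.2, 46.7 and 22.8 CPM. Next were the Ibsp gate at 12.1, 21.6 and 16.3 CPM and the Ifitm5 gate at 4.89, 14.4 and 27.3 CPM. The Ifitm5 range overlapped those of the Ibsp and the Hand2 gate, and at 8 weeks the Ifitm5 gate lay above the Hand2 gate. The Krt14 gate was at 2.78, 4.72 and 5.80 CPM, and the Rgs5 and Pecam1 gates of P15 were at 11.6 and 3.70 CPM.

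All 5 comparisons with the Ogn gate called Angpt4 lower. The log2 fold change was -3.80 (SE 0.59, edgeR adjusted p = 0.00271) in the Ibsp gate, -2.61 (SE 0.57, edgeR adjusted p = 0.0258) in the Hand2 gate and -5.70 (SE 0.67, edgeR adjusted p = 2.29e-05) in the Krt14 gate, in 3 of 3 libraries each. In the Rgs5 gate it was -4.54 (SE 1.06, edgeR adjusted p = 0.0259), and in the Pecam1 gate, from 5 UMIs, -6.28 (SE 1.26, edgeR adjusted p = 0.00367). Within P15 the Rgs5 gate was 10.4-fold lower (95% Poisson interval 6.88 to 16.6) and the Pecam1 gate 32.8-fold lower (14.0 to 101), smaller differences than those fits, and with the library as a block the log2 fold changes were -3.83 and -5.56. The Krt14 and Pecam1 calls held without each library that could be left out. The Ibsp, Hand2 and Rgs5 calls did not: without the P25 library their edgeR adjusted p was 0.152, 0.482 and 0.195, and without the 8-week library 0.0892, 0.363 and 0.0924, at log2 fold changes between -4.43 and -2.07. With cells of different lineages kept, the Rgs5 gate gained cells that also pass other gates and no member was called there (for Angpt4, edgeR adjusted p = 0.917), nor in the Hand2 gate (0.114). A doubled threshold also lost the Hand2 call (edgeR adjusted p = 0.0913) and the Rgs5 call (log2 fold change -4.76). Leaving out the 5% of cells with the most UMIs lost both too. The Hand2 call was then at an edgeR adjusted p of 0.0508, and the Rgs5 gate at a log2 fold change of -4.49.

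Angpt4 was also found in a larger share of single cells of the Ogn gate. After each cell was thinned to 3000 UMIs, an Angpt4 UMI was found in 24.4% of 2819 cells of the Ogn gate at P15 (95% Clopper-Pearson interval 22.9 to 26.1), 45.2% of 2308 at P25 (43.1 to 47.2) and 52.7% of 1490 at 8 weeks (50.1 to 55.2), which left out 12, 9 and 38 shallower cells. The thinned shares were 13.2%, 5.45% and 4.80% in the Hand2 gate, 2.59%, 2.78% and 3.12% in the Ibsp gate and 1.15%, 2.15% and 5.60% in the Ifitm5 gate. Without thinning the shares in the Ogn gate were 51.7%, 73.3% and 72.6%. In the Ptprc gate, which should lack the gene, the thinned share was 0.763% at P15 and 0.746% at P25, with a median of 9118 and 14799 UMIs per cell against 16770 and 16211 in the Ogn gate. These intervals cover counting error only.

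**Figure D2:**
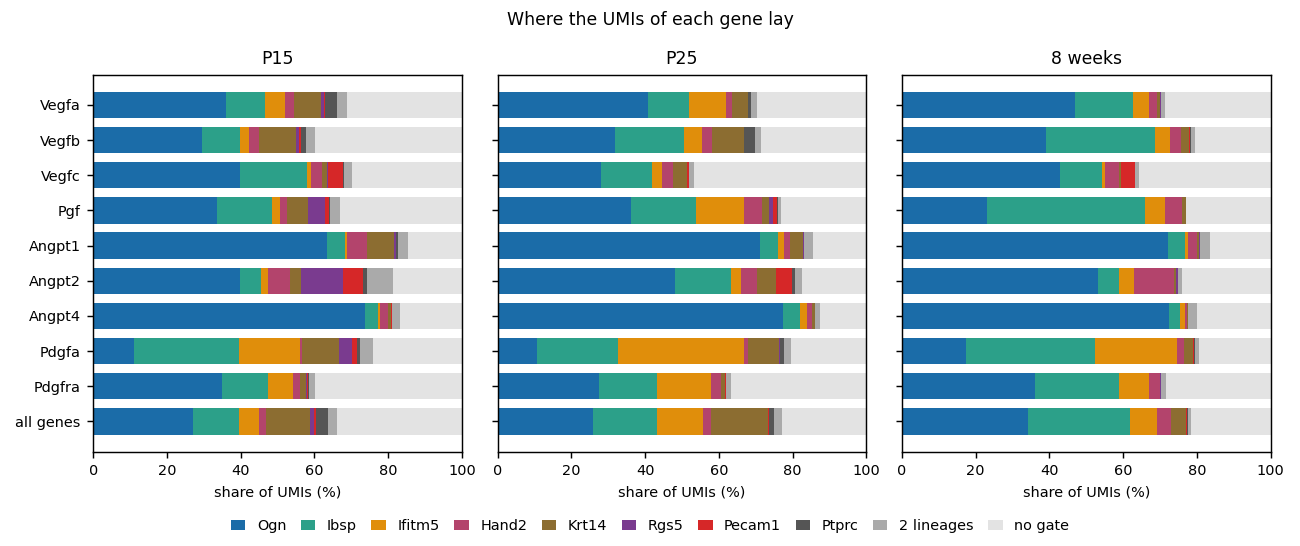
Share of all UMIs of each gene (x axis, percent) that lay in each gate, in cells of 2 lineages and in cells of no gate, with 1 panel per library; the lowest bar gives the same for the UMIs of all genes. The Ogn gate takes 72.6% to 77.5% of Angpt4 and 10.7% to 17.3% of Pdgfa, while it holds 25.9% to 34.1% of the UMIs of all genes.

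The 250 bases before the RefSeq start of Angpt4 are shown because this gene had the steepest contrast between gates. The window lies upstream of the gene at chr2:151910957-151911206 on the + strand (GRCm38.p6), and the gene itself spans chr2:151911210-151945337 in GENCODE. Capitals mark the letters TATAAA on the strand shown, ACCACA on either strand (here as its complement TGTGGT), the core that RUNX factors of skeletal cells bind, and GGGCGG on either strand, the GC box.
Angpt4: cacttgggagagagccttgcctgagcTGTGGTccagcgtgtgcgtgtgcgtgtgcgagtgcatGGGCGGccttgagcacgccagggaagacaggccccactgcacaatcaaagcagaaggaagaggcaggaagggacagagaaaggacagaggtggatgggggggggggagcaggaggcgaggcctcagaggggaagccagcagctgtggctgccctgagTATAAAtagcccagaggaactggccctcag
Each of the 3 motifs occurred once in it. Among 32851 RefSeq windows of 250 bases, TATAAA on the given strand occurred in 7.59%, ACCACA on either strand in 14.0% and GGGCGG in 32.7%. Of the 10 windows found for 7 of the 9 members, the Angpt4 window was the only one with TATAAA or ACCACA, and 8 of 10 held the GC box. The letters ACGTG, the core of the hypoxia response element, occurred in 16.6% of all windows and in 1 of the 10, an inner start of Vegfa. The letters of a motif describe the window and say nothing of what binds there.

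Pdgfa had the opposite distribution within the mesenchyme. It was at 212, 163 and 156 CPM in the Ifitm5 gate and at 159, 73.9 and 65.0 CPM in the Ibsp gate, against 27.6, 24.1 and 26.2 CPM in the Ogn gate and 19.9, 28.3 and 28.3 CPM in the Hand2 gate. The Ogn and Hand2 gates overlapped and lay below every other value. The Ibsp gate was called higher than the Ogn gate by a log2 fold change of 1.96 (SE 0.31, edgeR adjusted p = 0.0031), in 3 of 3 libraries, with an edgeR adjusted p of 0.149 without the P25 library and 0.0565 without the 8-week library, at log2 fold changes of 2.11 and 2.20. The Ifitm5 gate was higher than the Ibsp gate in 3 of 3 libraries, by a log2 fold change of 1.03 (SE 0.30) that was not called (edgeR adjusted p = 0.0948). It was called with the library as a block (1.09, edgeR adjusted p = 0.029) and without the P15 library (1.46, edgeR adjusted p = 0.00187). Beside this difference, 6 odontoblast markers, some of which bone-forming cells also express, summed to 23226, 67305 and 39691 CPM in the Ifitm5 gate. In the Ibsp gate they summed to 19858, 17911 and 16791 CPM. They include Dmp1 and Phex, also used to check the Ifitm5 gate, so the sums do not tell odontoblasts from other mineralizing cells. The part of these markers in the difference was not tested.

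In CPM of all UMIs, the highest level of Pdgfa was in the Rgs5 gate of P15, at 245 CPM (463 UMIs, 95% Poisson interval 223 to 268). With the size factors of the tests (TMM) that gate was at 210 CPM, below the 220 CPM of the Ifitm5 gate of P15. The Rgs5 gate was called higher than the Ogn gate, by a log2 fold change of 3.05 (SE 0.39). The call held without the P25 library (edgeR adjusted p = 0.0495) and without the 8-week library (0.0146), and with cells of different lineages kept it was lost (0.0735). The Pecam1 gate was at 113 CPM (log2 fold change 1.85, SE 0.41, edgeR adjusted p = 0.00626, and 0.0728 without the P25 library). The Krt14 gate, at 58.5, 32.5 and 31.1 CPM, was higher by a log2 fold change of 0.78 (SE 0.31, edgeR adjusted p = 0.047), a call lost without the P25 library (0.215) and the 8-week library (0.0752) and in 8 of the other alternatives, with edgeR adjusted p from 0.0520 to 0.146. In thinned cells a Pdgfa UMI was found in 44.0%, 35.7% and 35.6% of the Ifitm5 gate, 34.7%, 18.0% and 15.6% of the Ibsp gate and 4.39% and 9.70% of the Ptprc gate at P15 and P25.

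Pdgfra, the receptor for PDGF-A, was shared by the mesenchymal gates. It was at 179, 124 and 177 CPM in the Ogn gate, 139, 105 and 137 CPM in the Ibsp gate, 181, 140 and 180 CPM in the Ifitm5 gate and 134, 133 and 144 CPM in the Hand2 gate. The Ogn and Hand2 ranges overlapped each other and those of the Ibsp and Ifitm5 gates. The Ifitm5 range lay just above the Ibsp range, and the Ifitm5 gate was higher in 3 of 3 libraries. None of the 3 comparisons run among these gates called it (edgeR adjusted p between 0.434 and 0.764). The Ifitm5 gate was not compared with the Ogn or the Hand2 gate. In the other gates it was lower than in the Ogn gate: the Krt14 gate, at 18.5, 7.83 and 3.16 CPM, by a log2 fold change of -3.77 (SE 0.37, edgeR adjusted p = 6.6e-06), the Pecam1 gate, at 25.9 CPM, by -2.89 (SE 0.60, edgeR adjusted p = 0.00423), and the Rgs5 gate, at 41.2 CPM, by -2.14 (SE 0.55, edgeR adjusted p = 0.0433). The first 2 calls held without each library that could be left out, and the Rgs5 call was lost without the P25 library (edgeR adjusted p = 0.219) or the 8-week library (0.0552). It was also lost with at least 3 UMIs as the only gate (0.177), a doubled or halved threshold (0.0567 and 0.0848), stricter cells (0.0659) and total UMI scaling (0.0820). With cells of different lineages kept, the log2 fold change was -0.12 (edgeR adjusted p = 0.999). In the Ifitm5 gate, finding the receptor was not seen to go with finding the ligand Pdgfa. In thinned cells with a Pdgfa UMI, 33.3%, 32.1% and 48.3% had a Pdgfra UMI. In those without one the shares were 40.5%, 35.8% and 41.1%, with intervals that overlap in each library.

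**Figure D3:**
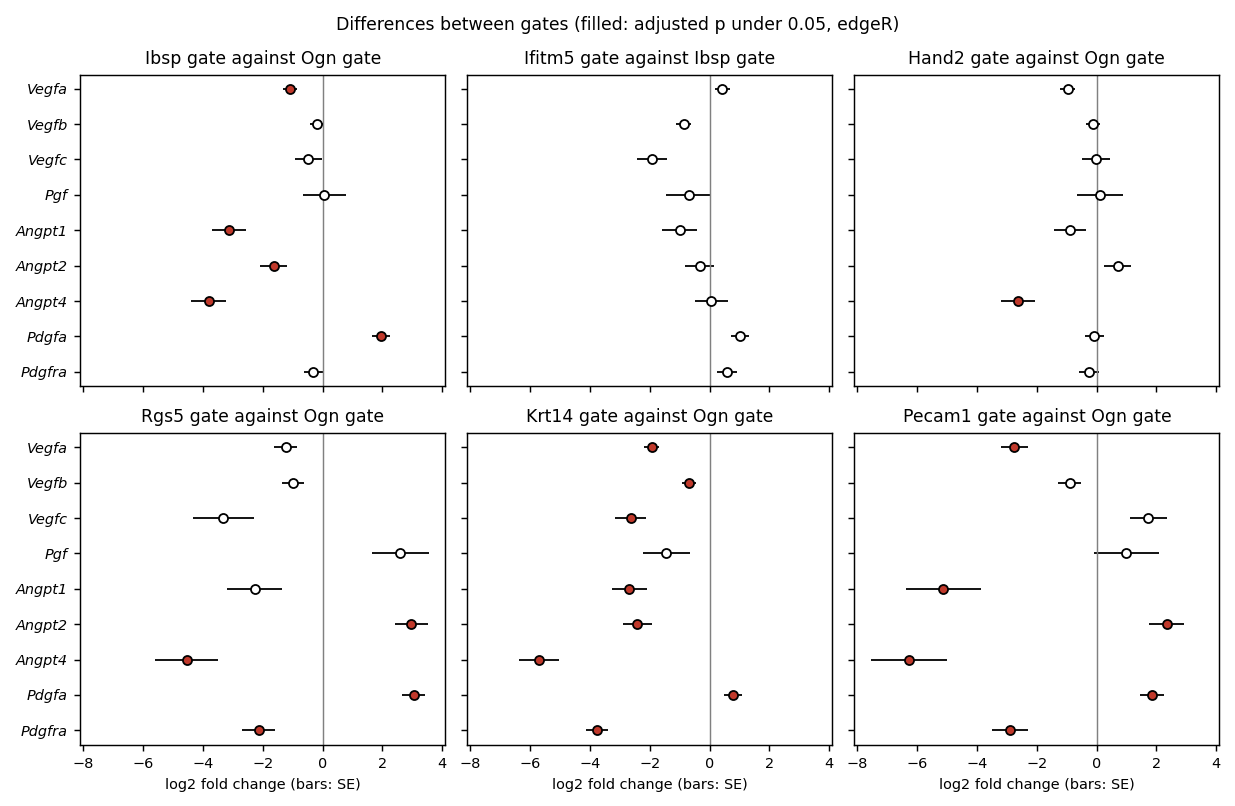
Log2 fold change of each gene in 6 comparisons between gates (x axis), with bars for 1 SE; filled points passed an edgeR adjusted p of 0.05. Angpt4 lies to the left in all 5 comparisons with the Ogn gate, and Pdgfa lies to the right in the Ibsp, Rgs5, Krt14 and Pecam1 gates.

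Within the Ogn gate, the angiopoietins were higher in cells with more Ogn. Cells were divided into 4 equal groups by their Ogn level within each library. From the lowest to the highest group, Angpt4 went from 58.9 to 185 CPM at P15, from 184 to 308 CPM at P25 and from 258 to 394 CPM at 8 weeks. Angpt1 went from 49.0 to 179 CPM, from 48.5 to 124 CPM and from 79.7 to 230 CPM. The intervals of the lowest and the highest group did not overlap for Angpt4 or Angpt1 in any library. Angpt2, at low levels, went from 5.11 to 12.3 CPM, from 3.68 to 8.03 CPM and from 4.57 to 8.13 CPM. Vegfb, between 35.8 and 51.3 CPM, and Pdgfra, between 112 and 206 CPM, had no order shared by the 3 libraries. Pdgfa was at 22.4 CPM in the highest and 34.9 CPM in the lowest group at P15, with intervals that do not overlap, and had overlapping intervals at P25 and 8 weeks. Vegfa went from 50.2 to 74.3 CPM at P15 and from 76.2 to 93.5 CPM at P25, with intervals that do not overlap, and from 97.7 to 92.2 CPM at 8 weeks. The groups hold cells of the same animals and are not replicates, so no test was made.

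**Figure D4:**
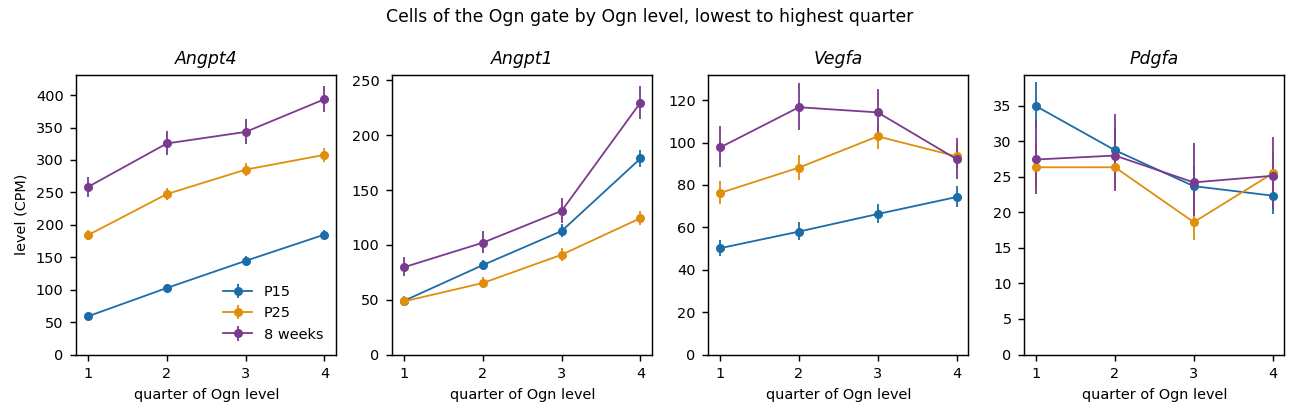
Level (y axis, CPM, from 0) of 4 genes in the cells of the Ogn gate, divided into 4 equal groups by Ogn level within each library (x axis, lowest to highest); bars are 95% Poisson intervals. Angpt4 and Angpt1 are higher in each next group at all 3 ages, from 58.9 to 394 CPM for Angpt4. Vegfa is so at P15 only, and Pdgfa at no age.

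Angpt4 and Angpt1 also shared cells, and pairs with Angpt2 were not counted. In thinned cells of the Ogn gate with an Angpt4 UMI, 33.6% had an Angpt1 UMI at P15 (95% Clopper-Pearson interval 30.1 to 37.2), against 20.4% (18.7 to 22.2) of those without. At P25 the shares were 22.8% and 18.1%, with intervals of 20.2 to 25.5 and 16.0 to 20.3 that just overlap, and at 8 weeks 34.1% and 19.4%, with intervals that do not. For Vegfa the order was turned at P15, with a UMI in 78 of 708 cells with an Angpt4 UMI (interval 8.81% to 13.6%) and in 16.9% of those without (15.3 to 18.6), while at 8 weeks the shares were 20.2% and 20.8%. At P15 the pairing was not particular to Angpt1. There 44.7% of cells with an Angpt4 UMI had a Pdgfra UMI (40.9 to 48.5), against 34.4% (32.4 to 36.5) of those without. The Pdgfra shares were 31.3% and 27.9% at P25 and 38.9% and 39.8% at 8 weeks, with intervals that overlap. Of the genes counted, only Angpt1 had separate intervals at 8 weeks.

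With 1 library per age, the levels at the 3 ages stand side by side without a test. In the Ogn gate, the level of Angpt4 at 8 weeks was 2.71 times that at P15 (95% Poisson interval of the ratio 2.61 to 2.82) and that of Pgf was 0.153 times (0.111 to 0.206). They were the 2 members past 2-fold among the 8 that reached 10 CPM, where 5.10% of 8805 genes were past 2-fold higher and 2.82% past 2-fold lower. Angpt2 stayed under 10 CPM. Vegfa was at 1.69 times its P15 level (1.60 to 1.80) and Angpt1 at 1.30 times (1.24 to 1.37), and Pdgfra (0.987, 0.945 to 1.03) and Pdgfa (0.951, 0.850 to 1.06) had intervals that include 1. Beside these ratios, a list of 18 genes that respond to cell stress summed to 16323, 26084 and 37438 CPM in the Ogn gate at P15, P25 and 8 weeks. The list of Ogn markers, which holds Ogn itself, summed there to 7115, 9504 and 10609 CPM. The Ifitm5 list was at 384, 473 and 2040 CPM. All 3 lists were in the order of the Vegfa and Angpt4 levels, and their part in these ratios was not tested.

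In the Ibsp gate 3 of 8 members were past 2-fold lower at 8 weeks and none higher, where 3.48% of 8523 genes were lower and 2.38% higher. They were Vegfc at 0.298 times its P15 level (0.221 to 0.395), Pgf at 0.363 (0.285 to 0.459) and Pdgfa at 0.408 (0.378 to 0.440). Beside these ratios, the list of 6 Hand2 markers summed to 863, 3195 and 4415 CPM in the Ibsp gate at the 3 ages, and its part in them was not tested.

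In the Hand2 gate 3 of 9 were past 2-fold lower and none higher, where 4.60% of 8747 genes were lower and 6.45% higher: Angpt1 at 0.345 times (0.262 to 0.446), Pgf at 0.358 (0.156 to 0.729) and Angpt4 at 0.474 (0.325 to 0.675). The Pgf ratio rested on 57 UMIs at P15 and 9 at 8 weeks. The Hand2 gate kept 182 of 225 cells that passed Hand2 at P15 but 202 of 734 and 125 of 536 at P25 and 8 weeks. Its Hand2 list went from 4556 to 8943 CPM and its Ibsp list from 325 to 1579 CPM between P15 and 8 weeks, and the part of this change in the ratios was not tested. Pgf was thus below its P15 level in the Ogn, Ibsp and Hand2 gates alike, and its level in all cells was 15.5, 6.05 and 4.33 CPM.

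Angpt4 went opposite ways in the mesenchymal gates, at 2.71 times its P15 level in the Ogn gate and 0.474 times in the Hand2 gate. In the Ifitm5 gate it was at 5.58 times (3.91 to 8.06), from 49 UMIs at P15 and 93 at 8 weeks, while the list of Ogn markers summed there to 604, 825 and 1013 CPM at the 3 ages, and the part of that list was not tested. In the cells of no gate Angpt4 was at 22.1, 46.9 and 144 CPM. The P25 file names another software version and lists more features than the other files, which cannot be told apart from that age.

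**Figure D5:**
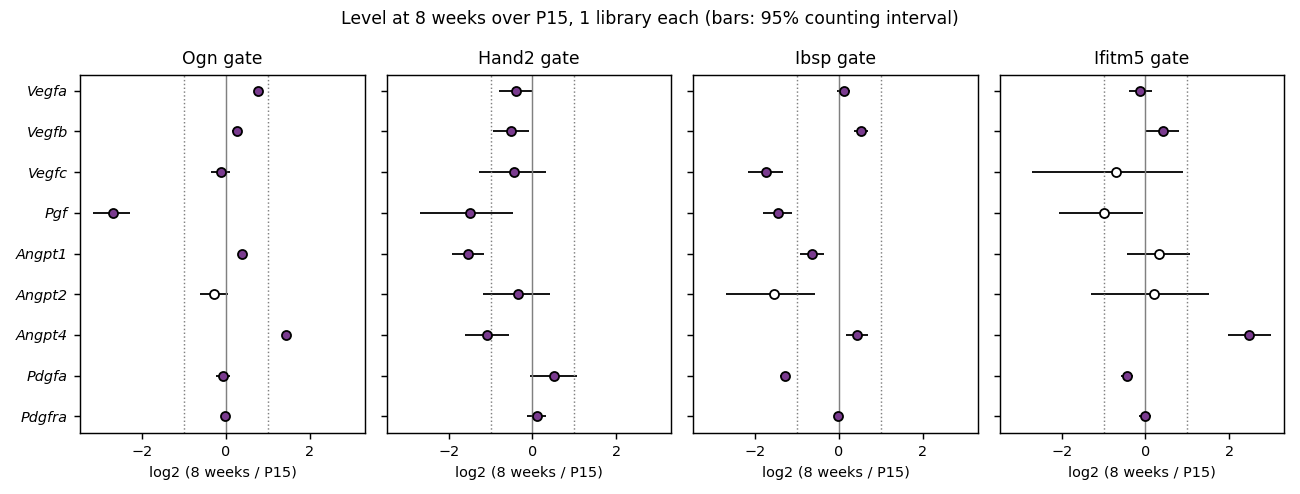
Level at 8 weeks over that at P15 (x axis, log2, 1 library each) of the 9 genes in 4 gates, with 95% Poisson intervals; dotted lines mark 2-fold, and open points are genes under 10 CPM in both libraries. Angpt4 lies beyond the upper line in the Ogn and Ifitm5 gates and beyond the lower line in the Hand2 gate, and Pdgfra lies at 0 in all 4.

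The receptors of the VEGFs and angiopoietins were highest in the Pecam1 gate, unlike Pdgfra. At P15 the Pecam1 gate held 1216 CPM of Flt1 and 692 CPM of Kdr, the receptors of Vegfa, 184 CPM of Tek and 274 CPM of Tie1, its partner, while in the Ogn gate Flt1, Kdr, Tek and Tie1 were at 0.412, 1.43, 1.30 and 0.157 CPM. Flt4, the receptor of Vegfc, was at 109 CPM in the Pecam1 gate and at 7.50, 7.53 and 2.80 CPM in the Ogn gate. Pdgfrb, the receptor of PDGF-B, was at 885 CPM in the Rgs5 gate of P15, and its ligand Pdgfb was at 135 CPM in the Pecam1 gate and at 0.177 CPM in the Ogn gate. Flt1, Kdr and Tie1 were also among the markers used to check the Pecam1 gate, and Pdgfrb among those for the Rgs5 gate. Their levels there, and their part in the counts below, are thus not separate from those checks.

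Of 16 receptors tested, 11 were called higher and 2 lower in the Pecam1 gate than in the Ogn gate. There 10.9% of all genes were called higher and 10.3% lower. The median log2 fold change was 3.76, against -0.12 over all genes. Flt1, Tie1, Kdr and Aplnr led, and Pdgfrl and Pdgfrb were lower. In the Rgs5 gate 5 were higher (3.07% of all genes) and none lower (1.81%), with a median of 0.87 against -0.08. Among the 5 were Flt1, Nrp1, Pdgfrb and Calcrl. The endothelial marker list, which holds Flt1, stood at 183 CPM in this gate at P15 and at 17.3 CPM in the Ogn gate. Its part in these calls was not tested. In the Krt14 gate 1 was higher (Itgav) and 9 lower, against 25.7% and 25.2% of all genes, with a median of -1.60 against 0.02. In the Ibsp gate 1 was higher (Itgav, 2.82% of all genes) and 4 lower (Tek, Flt4, Calcrl and Nrp1, 3.94%). The Hand2 gate had 1 lower (Calcrl, 2.31%), and the Ifitm5 gate had 1 lower than the Ibsp gate (Ramp2, 1.44%). Tek, called lower in the Ibsp than in the Ogn gate, was at 1.30, 1.94 and 10.1 CPM in the Ogn gate, far below its level in the Pecam1 gate.

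Of 20 other ligands that act on vessels, 3 were called higher in the Pecam1 gate than in the Ogn gate (Dll4, Pdgfb and Apln). Lower were 4 (Angptl1, Mdk, Ccn1 and Angptl2), where 10.9% of all genes were called higher and 10.3% lower. In the Krt14 gate 2 were higher (Pdgfb and Jag1) and 11 lower, against 25.7% and 25.2% of all genes. Cxcl12, a chemokine of perivascular stroma, was lower there by a log2 fold change of -5.07 (SE 0.67, edgeR adjusted p = 5.71e-05). In the Rgs5 gate Pdgfb was higher (3.07% of all genes) and Angptl1 lower (1.81%). In the Hand2 gate Cxcl12 and Jag1, a Notch ligand, were lower (2.31%). Cxcl12 was also among the markers used to check the Ogn gate, so its calls against that gate are not separate from the check. The Ibsp gate was higher in Pdgfc, another ligand of PDGF receptor alpha (2.82%), and lower in Jag1 (3.94%). The Ifitm5 gate was lower than the Ibsp gate in Angptl1 and Angptl2 (1.44%). The medians of the list lay between -2.25 and -0.46 in the 6 comparisons, against -0.12 to 0.02 over all genes.

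Genes of the hypoxia response, of which Vegfa is a known target, were called in numbers that varied with the comparison. In the Ibsp and in the Hand2 gate against the Ogn gate, edgeR called none of 20, with 5 at an unadjusted p under 0.05 and 2 called by DESeq2 in each. P4ha1, a collagen prolyl hydroxylase subunit, was the 1 called higher in the Ifitm5 than in the Ibsp gate (log2 fold change 0.81, SE 0.16, edgeR adjusted p = 0.0158). Of all genes 1.72% were called higher there. In the Krt14 gate, where Vegfa was lower, 7 of 20 were higher and 5 lower, where 25.7% and 25.2% of all genes were called, with the glucose transporter Slc2a1 higher by a log2 fold change of 3.33 (SE 0.41, edgeR adjusted p = 3.13e-05). In the Pecam1 gate 6 of 20 were higher and 2 lower, where 10.9% and 10.3% of all genes were called, led by Epas1, an endothelial oxygen-regulated factor (6.88, SE 0.53, edgeR adjusted p = 3.84e-06). In the Rgs5 gate 2 were higher (Epas1 and Ankrd37, 3.07% of all genes). The part of the endothelial markers found in that gate was not tested.

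Of 16 inhibitors of vessel growth, 10 were called lower and 1 higher (Col18a1, the precursor of endostatin) in the Krt14 gate than in the Ogn gate, where 25.2% of all genes were called lower and 25.7% higher. In the Pecam1 gate Col18a1 and Vash1 were higher (10.9% of all genes). Serpinf1, which encodes the inhibitor PEDF, and Thbs2 were lower there (10.3%). In the Rgs5 gate Col18a1 was higher (3.07%) and Serpinf1 lower (1.81%). The Ibsp gate was higher in Timp3 (2.82%) and lower in Spock3 (3.94%). In the Hand2 gate edgeR called none, with 5 at an unadjusted p under 0.05 and 1 called by DESeq2. Sema3e, a repulsive cue for endothelial cells, was higher in the Ifitm5 than in the Ibsp gate (log2 fold change 4.46, SE 0.70, edgeR adjusted p = 0.00561). Of all genes 1.72% were called higher there. Of 18 stress genes, 12 were lower and 1 higher in the Krt14 gate, 8 lower and 1 higher in the Pecam1 gate, 5 lower in the Hand2 gate and 3 lower in the Ibsp gate. The shares of all genes called lower there were 25.2%, 10.3%, 2.31% and 3.94%. In the Rgs5 against the Ogn gate edgeR called none of them, with 2 at an unadjusted p under 0.05 and 2 called by DESeq2, and in the Ifitm5 against the Ibsp gate none, with 1 and 0. Vegfa was called lower in the Ibsp, Krt14 and Pecam1 gates too, and the part of the stress genes in that difference was not tested. Of 8 genes of dividing cells, 8 were called higher in the Krt14 gate (25.7% of all genes), 2 in the Pecam1 gate (10.9%) and 1 in the Hand2 gate (1.21%) than in the Ogn gate.

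Over the 17 sums, which share libraries and gates, the genes most like Angpt4 in log2 CPM were Gpx3, Dio3 and Gaa, with Pearson correlations of 0.981, 0.947 and 0.946. Gpx3 was also a marker used to check the Ogn gate. Pdgfra was like Gxylt2 (0.991), Vegfa like Ikzf4 (0.966), Vegfc like Fbln5 (0.883) and its receptor Flt4 (0.876), Angpt1 like Rbbp7 (0.936), Angpt2 like Arhgap6 (0.930), Pdgfa like Raph1 (0.933), Pgf like Oaz2 (0.858) and Vegfb like Cdc42ep5 (0.856). Among the members, Vegfa and Angpt4 were the most alike (0.815), and Vegfb and Pdgfa had the lowest value (-0.689). These are descriptions of sums that share cells' origins and carry no test.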

How the data were processed

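For each library the authors deposited UMI counts per gene and cell, whole numbers without normalization; the file headers give Cell Ranger 6.1.2 for P15 and 8 weeks and 6.0.1 for P25, and the submitters' processing notes name Cell Ranger 6.1.2 and mm10. The annotation is not given in the sources used here. UMIs are counted near the 3' end, so isoforms were not told apart, and low-depth values rest on few UMIs. Libraries held 188157997, 169712592 and 46234378 UMIs. All 27089 deposited cells were kept, and barcodes shared between libraries numbered 13 to 26 a pair. No doublet caller was run.

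A cell passed a gate with at least 3 UMIs of the marker and a CPM at or above the Otsu threshold of log2 CPM over all 3 libraries. Cells passing gates of different lineages were left out, and a cell of several mesenchymal gates was placed in the first of Ifitm5, Ibsp, Hand2 and Ogn. Sums of at least 20 cells entered edgeR 4.0.16 (R 4.3.3; TMM, filterByExpr, robust quasi-likelihood fit by gate, Benjamini-Hochberg). The fit was also run on simulated sums without any effect of library or age, and checked for the Ibsp against the Ogn gate. That run cannot show how the fit handles gates that vary together within a library, or gates with a lone sum. Gates of a library come from the same animals, and their deviations from the gate means correlated across genes at 0.140 to 0.708 in all pairs; a fit with library as block was therefore tried beside the main one, as were DESeq2 1.42.0, other size factors, filters, gates and cells, and each library left out. Intervals are exact at 95% (Poisson, Clopper-Pearson) and cover counting error only; a count of 0 allows up to 3 counts. Python 3.11.15, scipy 1.17.1 and RefSeq and GENCODE tables of GRCm38 were used.

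The members, the gene lists and the gates were chosen with earlier results of these data known. The text names all 9 members, of the other pathway genes those called with the largest or smallest change, up to 4 per list and comparison, and the genes most like each member over the sums among those of at least 50 CPM; 1 such gene is not reported here.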

Additional observations from a re-analysis of the deposited data

Results flagged for a closer look

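In 4 cases a difference between gates had opposite directions at different ages. Each age is 1 library, and whether the directions differ between ages was not tested. Pgf in the Ibsp gate was at 0.963 times its level in the Ogn gate at P15 (95% Poisson interval 0.858 to 1.08), 0.726 times at P25 (0.602 to 0.874) and 2.29 times at 8 weeks (1.58 to 3.34). Angpt4 in the Ifitm5 gate was at 0.406 times its level in the Ibsp gate at P15 (0.293 to 0.551), 0.666 times at P25 (0.577 to 0.767) and 1.67 times at 8 weeks (1.29 to 2.14). Vegfb in the Hand2 gate was at 1.26 times its level in the Ogn gate at P15 (1.08 to 1.46), 0.887 times at P25 (0.733 to 1.06) and 0.738 times at 8 weeks (0.558 to 0.960). Angpt1 in the Hand2 gate was at 1.12 times its level in the Ogn gate at P15 (1.02 to 1.24), 0.258 times at P25 (0.204 to 0.321) and 0.298 times at 8 weeks (0.230 to 0.380).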

How the results depend on the processing

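No called difference of a member turned its direction under any alternative that was run, and 9 of the 24 calls were kept by all of them. They were Vegfa, Vegfc, Angpt2, Angpt4 and Pdgfra in the Krt14 gate and Vegfa, Angpt2, Angpt4 and Pdgfra in the Pecam1 gate. The Pecam1 calls rest on the lone P15 sum, so they had no fit without P15. Leaving out P25 or 8 weeks took away no sum of the Pecam1 gate, so those fits cannot check that sum. Leaving out a library cost the most calls: 12 of 24 were left without P25, 12 without 8 weeks and 13 of the 14 that had a fit without P15. Fewer sums enter such a fit, and 1 library per age remains the main limit of depth and design, since the spread between sums also holds the ages.

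Beside the members named with it in the report, the library as a replicate block changed no call. The number of members called in the Ibsp against the Ogn gate was 5, and 3 with at least 3 UMIs only as the gate; leaving out a library gave 0 to 4. In the Hand2 against the Ogn gate it was 1. Without the 5% of cells with the most UMIs it was also 1, but Vegfa was called in place of Angpt4. It was 2 with DESeq2, RLE size factors, genes joined by symbol, the library as a replicate block or stricter cells. With cells of 2 lineages kept or a doubled threshold it was 0, and leaving out a library gave 0 to 3. In the Ifitm5 against the Ibsp gate it was 0. It was 3 with DESeq2 and with the library as a replicate block, 2 with at least 3 UMIs only, and 1 with cells of 2 lineages kept, a doubled threshold or total UMI scaling, an alternative chosen after seeing the data; leaving out a library gave 0 to 1. In the Rgs5 against the Ogn gate it was 4. It was 0 with cells of 2 lineages kept and 2 with a doubled threshold; leaving out a library gave 1 to 2. DESeq2, unlike edgeR, also called Vegfa and Vegfc lower in the Rgs5 gate, at log2 fold changes of -1.21 and -3.31. In the Krt14 against the Ogn gate the number of members called was 8. It was 7 in 8 alternatives, in which the call of Pdgfa was lost; leaving out a library gave 5 to 9. In the Hand2 gate 3 members were past 2-fold between P15 and 8 weeks, and 5 with a doubled threshold. Except where a value stands beside its result, the cause was not tested. Total UMI scaling moved the median of all genes to -0.23 in the Ifitm5 against the Ibsp gate and to 0.15 in the Pecam1 against the Ogn gate, from -0.03 and -0.12 with TMM.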

Other observations

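Angpt1 and Angpt4 were at 199 and 371 CPM in the 54 cells that passed gates of 2 lineages at 8 weeks, above their levels in the Ogn gate of that library. The 9 and 6 cells of the Rgs5 gate at P25 and 8 weeks were at 114 and 336 CPM of Angpt4 and at 161 and 439 CPM of Pdgfra, against 11.6 and 41.2 CPM in the 178 cells of P15. In cells of no gate, Vegfa was at 43.0 CPM at P15 and 101 CPM at 8 weeks, and Pdgfra at 164 and 220 CPM.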
